A study of Mus musculus with 65 samples.

Results

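CTCF and TAL1 peaks were examined at 10 imprinted genes of the mouse: H19, Igf2, Kcnq1ot1, Peg3, Meg3, Grb10, Rasgrf1, Plagl1, Mest and Igf2r. The genes were chosen because CTCF binding at imprinting control regions can depend on DNA methylation, and every peak within a gene body or 50 kb on either side was taken (GENCODE M21 on mm10). Peaks of all libraries that shared at least 1 bp were merged into sites, which gave 48 CTCF sites of 95140 in the genome and 19 TAL1 sites of 13153. The peaks come from 34 CTCF and 19 TAL1 ChIP-seq libraries, made to find how the length of sheared chromatin bears on ChIP-seq success. All 19 TAL1 and 23 of the CTCF libraries are from G1E-ER4+E2, an erythroid progenitor line derived from mouse ES cells and treated with β-estradiol for 24 hours to mature, with sheared chromatin of different lengths. The other 11 CTCF libraries are from cells sorted from the bone marrow of young male C57BL/6 mice, hereafter primary cells: LSK (which include the stem cells), CMP, GMP and MEP progenitors, CFUE and ERY of the red cell lineage, and CFUMk and iMK of the megakaryocyte lineage. The authors graded each library Pass, Low pass or Fail by eye at loci whose binding is well studied. The comparison between cells uses the 14 Pass libraries of the line and the 9 Pass libraries of primary cells (LSK 2, MEP 1, CFUE 1, ERY 2, CFUMk 1, iMK 2), and CMP and GMP, each 1 Low pass library, are given beside it.

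At an imprinted locus the maternal and the paternal copy carry different DNA methylation at a control region, and a gene is read mainly from 1 copy. CTCF, a zinc finger protein that insulates and folds chromatin, binds poorly to many of its sites when a CpG within them is methylated. The best known case is the control region upstream of H19, where CTCF on the unmethylated maternal copy keeps distant enhancers from Igf2, the gene of a growth factor. TAL1 is a helix-loop-helix factor of blood stem cells and of the red cell and megakaryocyte lineages that is often found beside GATA factors. No DNA methylation, allele or expression was measured here, and a peak list cannot show which copy was bound or check the identity of the sorted cells.

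The primary and line libraries differ in more than cell type, and these differences cannot be told apart from it. The line grew in culture from ES cells, and most of its peaks were called against a composite input. By the methods it was fixed for a shorter time, but the paper states that fixation differed among its retrospective libraries. Cell number, which the paper varied in the line, is not in the labels of single libraries. The number of reads is unknown, and list length differed: 10655 to 21986 peaks in the Pass libraries of the line, and 15002 to 36481 in the Pass LSK, MEP, CFUMk and iMK libraries. The CFUE list held 11990 peaks and the ERY lists 8284 and 6629. These 3 lists called 4, 4 and 1 of the 48 CTCF sites, against 12 to 30 in the other 6 Pass libraries of primary cells. The Pass libraries of the line called 9 to 20. The line list of 10655 peaks, shorter than that of CFUE, called 11, so CFUE had few calls for its length. A site without a peak is therefore a site not called, not a site shown to be unbound. The paper describes batches of line cells sheared to varying degrees, and nothing in the labels ties the line libraries to separate cultures. Tests of calls count every library as independent, which may not hold. Those of ranks use the spread between libraries, which may be technical.

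**Figure D1:**
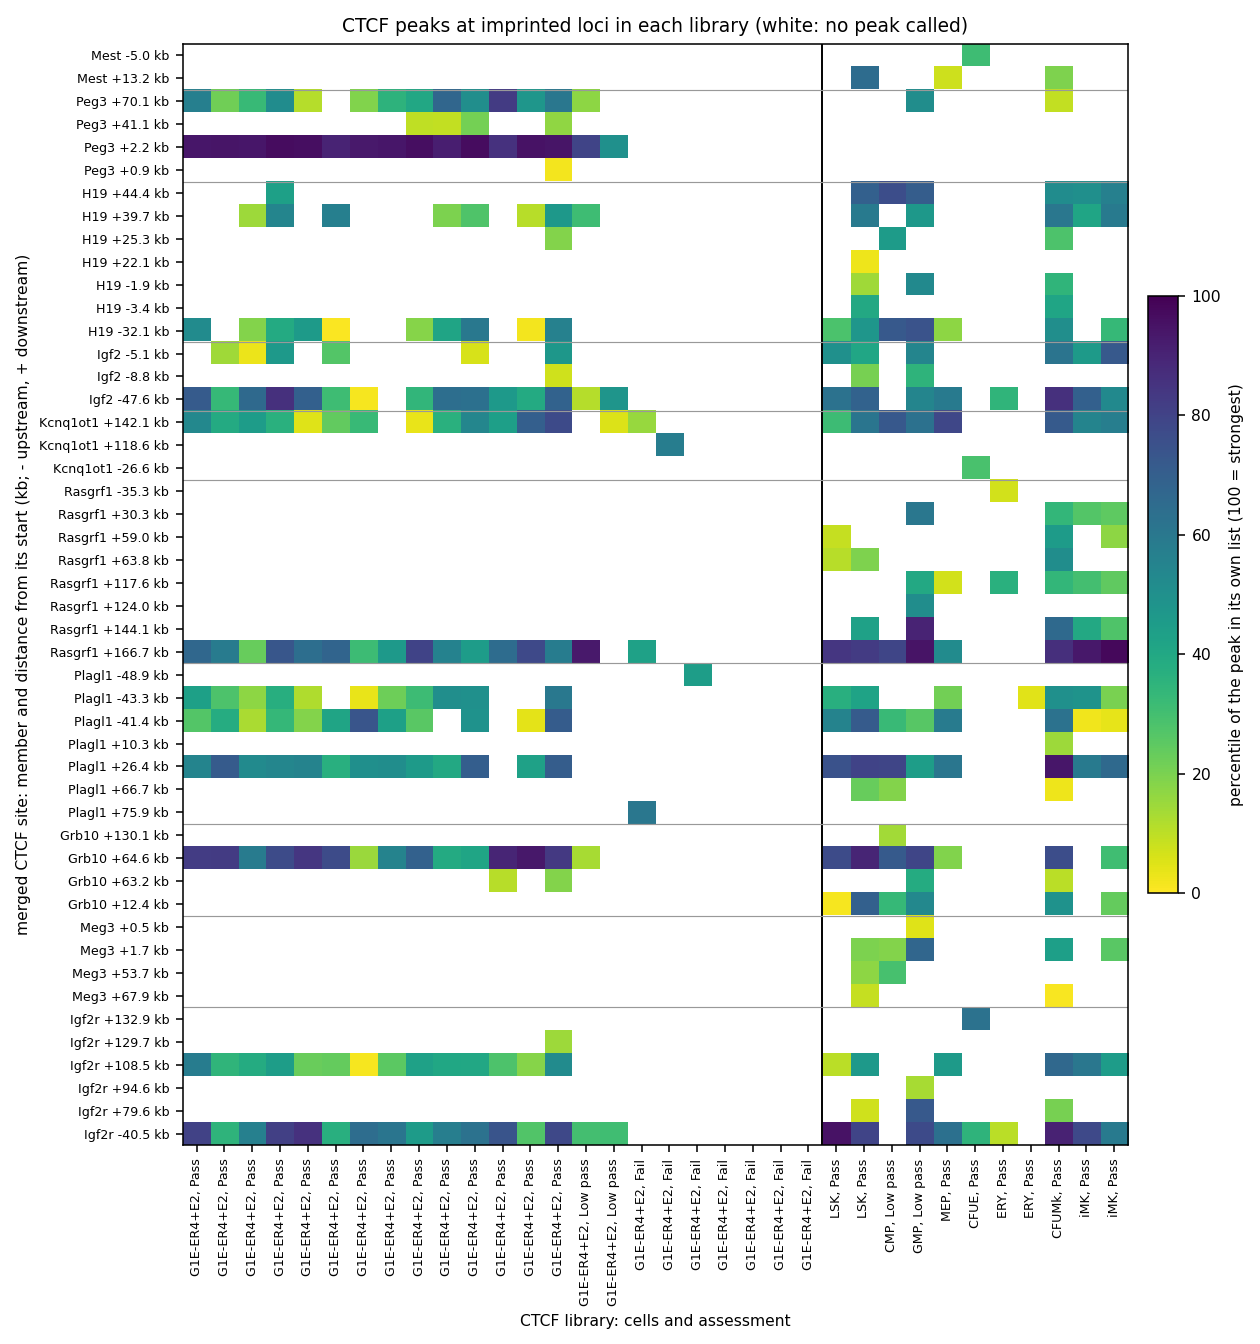
Peaks at the 48 CTCF sites (rows, named by the nearest member and the distance from its start in kb) in the 34 CTCF libraries (columns, line on the left of the black line, primary cells on the right). Colour is the percentile of the peak in its own list, 100 being the strongest, and white means no peak. The Peg3 +2.2 kb row is dark in all Pass libraries of the line and white in all 11 of primary cells, and the CFUE and ERY columns are nearly empty.

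The sequences at the control regions show what CTCF could bind. A CTCF matrix of 19 positions was learned from the 2000 strongest peaks of 1 LSK library, and each match is printed 5′ to 3′ in capitals with 10 flanking bases (GRCm38). Upstream of H19 lie 2 sites that together hold 5 matches, of which 4 have CpG within the match, and they are shown because CTCF binding there is the classic case of methylation dependence.
H19 1858 bp upstream, chr7:142580307-142580325, minus strand: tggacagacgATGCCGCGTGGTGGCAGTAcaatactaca
H19 1858 bp upstream, chr7:142580719-142580737, plus strand: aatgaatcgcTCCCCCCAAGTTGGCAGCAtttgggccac
H19 1858 bp upstream, chr7:142580762-142580780, minus strand: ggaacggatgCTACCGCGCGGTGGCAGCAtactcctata
H19 3394 bp upstream, chr7:142581788-142581806, minus strand: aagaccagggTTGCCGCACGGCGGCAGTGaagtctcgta
H19 3394 bp upstream, chr7:142582032-142582050, minus strand: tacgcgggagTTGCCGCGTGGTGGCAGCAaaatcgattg
The site in Peg3 holds 10 matches, of which 5 have a CpG within the match, and 3 of the 10 stand in copies of 1 repeat. These 3 are shown beside the matches of CpG-rich sites at Grb10 and Meg3, since calls at these sites are described for the line against primary cells.
Peg3 2216 bp downstream, chr7:6727279-6727297, minus strand: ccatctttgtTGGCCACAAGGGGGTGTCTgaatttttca
Peg3 2216 bp downstream, chr7:6727401-6727419, minus strand: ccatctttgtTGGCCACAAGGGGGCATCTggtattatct
Peg3 2216 bp downstream, chr7:6727539-6727557, minus strand: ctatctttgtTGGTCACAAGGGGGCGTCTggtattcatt
Grb10 12364 bp downstream, chr11:12025862-12025880, plus strand: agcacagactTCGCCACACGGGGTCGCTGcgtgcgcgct
Meg3 1738 bp downstream, chr12:109543036-109543054, minus strand: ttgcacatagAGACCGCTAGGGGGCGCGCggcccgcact
Distances are from the gene's start to the nearest edge of the site. The 4 H19 matches with a CpG hold 2, 3, 3 and 2 of them, and the Grb10 and Meg3 matches hold 3 each. The 3 Peg3 matches hold 0, 0 and 1, and the second of them is the best match of its site.

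CTCF was called at Peg3 in the line and not in primary cells. Peg3 encodes a zinc finger protein read from the paternal copy, and its control region lies around its start and first exons. The site chr7:6726809-6728215, in an intron of Peg3 and 2216 bp from its start, had a peak in all 14 Pass libraries of the line and in both Low pass ones, and in none of the 9 Pass or 2 Low pass libraries of primary cells. Its fold enrichment in the Pass libraries of the line was 8.70 at the lowest, 11.4 at the median and 25.9 at the highest, and 10.2 and 4.64 in the Low pass ones. The peak was among the strongest of every Pass list of the line, between the percentiles 85.9 and 96.6 of its list. The difference passed Fisher's exact test over all sites (two-sided, p = 1.22e-06, adjusted p = 0.000384, Benjamini-Hochberg over 31665 sites called in at least 2 of the 23 Pass libraries).

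Few sites of the genome fell this way. Of the 31665 sites tested, 12 (0.0379%) had a peak in all 14 Pass libraries of the line and in none of the 9 of primary cells. Of the 5676 sites called in all 14, 97.9% were called in at least 5 of the 9 Pass libraries of primary cells, and the median was 8. The 4 other member sites called in all 14, at Rasgrf1, Grb10 and Igf2r, were each called in 5 to 8 of the 9. The missing calls at Peg3 include lists longer than any of the line, those of LSK (28476 peaks) and CFUMk (36481 peaks). Without the CFUE and ERY lists, a choice made after seeing the data, the adjusted p was 0.000814 (0 of 6 libraries).

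A further site of the Peg3 domain differed in the same direction. It lies at chr7:6659383-6660369, in an intron of Zim2 and 70062 bp downstream of the Peg3 start. A peak was called in 13 of 14 Pass libraries of the line, with fold enrichments from 7.23 to 24.6 around a median of 10.8. Among primary cells it was called in CFUMk (8.84) and in the Low pass GMP library (30.5), so 1 of 9 Pass libraries had it (Fisher's exact test, p = 0.000155, adjusted p = 0.00891). This call was lost when only peaks with a −log10 p of at least 10 were kept and when all lists were shortened to 6629 peaks. The call at the Peg3 site 2216 bp from the start held under both. Its single match is weak (p = 7.27e-05) and repeats cover 46.6% of the site.
Peg3 70062 bp downstream, chr7:6660026-6660044, minus strand: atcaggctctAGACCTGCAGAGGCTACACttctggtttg
The remaining Peg3 sites, 41105 and 878 bp downstream of the start, were called in 4 and 1 Pass libraries of the line and in no library of primary cells.

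**Figure D2:**
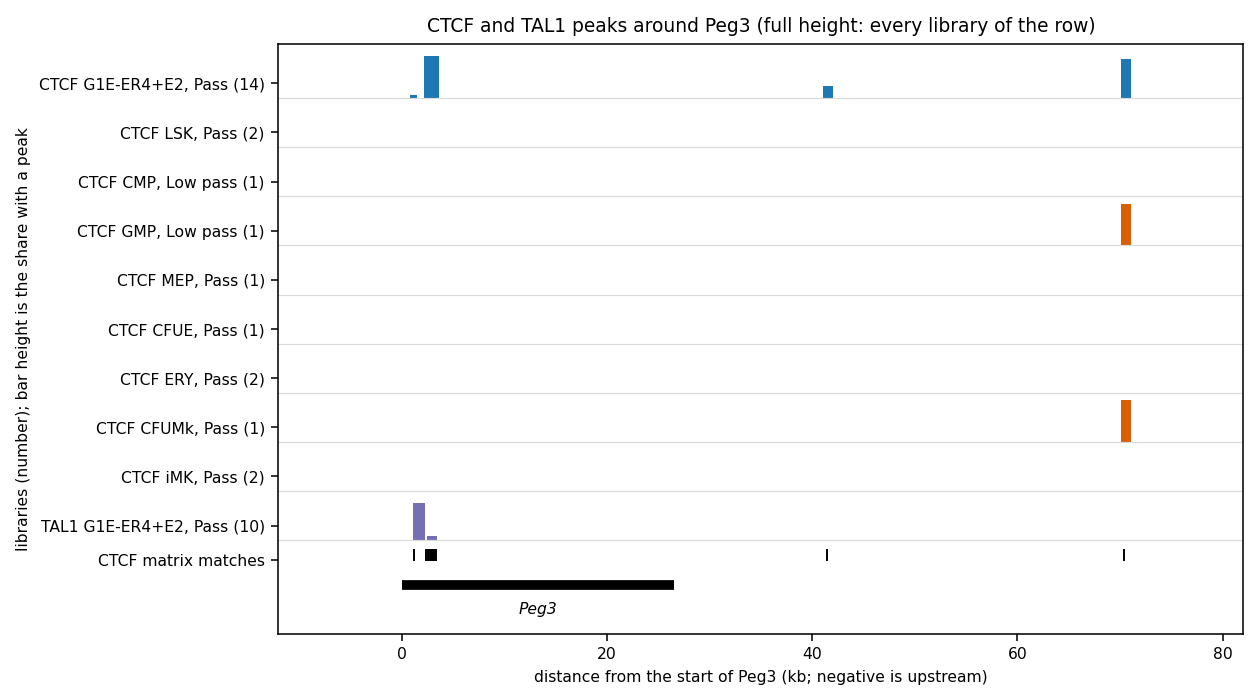
CTCF and TAL1 sites around Peg3 by distance from its start (kb, downstream to the right), 1 row for each kind of cell with the number of libraries in brackets, bar height being the share of them with a peak and the narrowest bars widened so that they can be seen. Ticks mark matches of the CTCF matrix and the black bar the gene. The CTCF bar at 2.2 kb reaches full height in the line only, beside a TAL1 bar of 9 of 10 libraries.

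The 2 Peg3 sites were the only members past the threshold among the 32 tested. Over all sites 0.55% were called more often in the line and 4.11% more often in primary cells, so 2 of 32 members (6.25%) in the first direction stand against 0.55% and 0 of 32 in the second against 4.11%. The balance of calls over the genome moved with list length: 1303 sites were higher in primary cells and 174 in the line, and 947 and 582 with every list shortened to 6629 peaks. At other imprinted genes (41 genes, such as Snrpn, Dlk1 and Gnas) 1 of 85 sites tested was called more often in the line (1.18%) and 2 in primary cells (2.35%). Of the 41 member sites with a peak in any Pass library, 17 were called in both kinds of cell, 4 in the line only and 20 in primary cells only, which is 41.5%, 9.76% and 48.8%. The same shares over the genome were 45.8%, 7.5% and 46.7%. Most primary-only calls came from few libraries: the median was 2 of 9, and 16 of the 20 sites were called in LSK or CFUMk, whose lists include the longest.

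**Figure D3:**
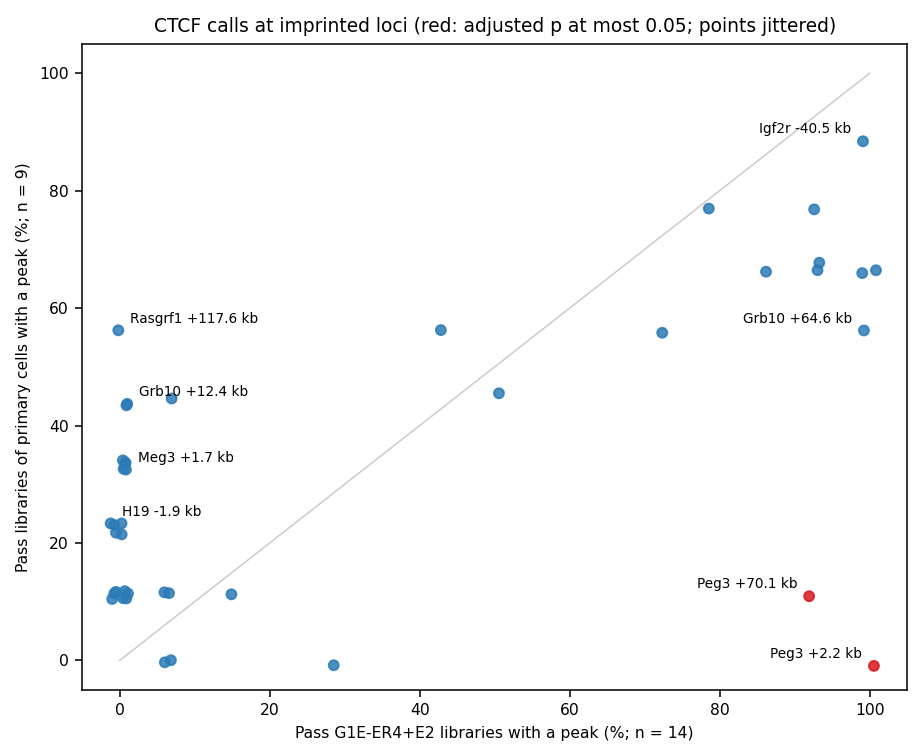
Share of the 14 Pass libraries of the line (horizontal) and of the 9 Pass libraries of primary cells (vertical) with a peak at each of the 41 member CTCF sites called in any of them, in percent, with points moved slightly at random so that they can be seen. The 2 red points, both of Peg3, are past an adjusted p of 0.05, and a column of sites stands at 0% in the line.

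At the H19 control region the calls fell the other way, without passing the test. H19 is a maternally read non-coding RNA. The site chr7:142580001-142581161, 1858 bp upstream of its start, was called in 1 of 2 LSK libraries (fold enrichment 8.95, percentile 14.4) and in CFUMk (10.7, percentile 34.7). It was also called in the Low pass GMP library (30.1, percentile 52.7) and in none of the 23 libraries of the line. Its neighbour chr7:142581537-142582467 was called in the same LSK library (12.3) and in CFUMk (11.3) alone. For either site 0 of 14 against 2 of 9 libraries gave p = 0.142 and an adjusted p of 0.331 by Fisher's exact test. The 3 lists with a call held 28476, 36481 and 34416 peaks, more than any list of the line (at most 21986), and the part of list length in this difference was not tested.

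Of the other CTCF sites around H19 and Igf2, all were called in both kinds of cell but 1, which lies 22053 bp downstream of H19 and was called in 1 LSK library only (6.71). Between the genes, 32096 bp upstream of H19, chr7:142610239-142611255 was called in 10 of 14 line and 5 of 9 primary Pass libraries (adjusted p = 0.922). In the line its fold enrichment ran from 6.75 to 22.95 and in primary cells from 5.98 in MEP to 19.5 in CFUMk, so the groups overlapped. Upstream of Igf2, the site at 47556 bp in the Ins2 gene was the most often called, in 13 of 14 and 7 of 9 (adjusted p = 0.801), including 1 ERY library. The site 5116 bp upstream of Igf2 was called in 6 of 14 and 5 of 9 (adjusted p = 0.932).
H19 32096 bp upstream, chr7:142610750-142610768, plus strand: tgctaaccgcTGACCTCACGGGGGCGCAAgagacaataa
Downstream of H19, in Mrpl23, which encodes a mitochondrial ribosomal protein, the site 39675 bp away was called in 7 of 14 and 4 of 9 (adjusted p = 1). The site at the Mrpl23 start, 44427 bp from H19, was called in 1 of 14 and 4 of 9 (adjusted p = 0.217).

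**Figure D4:**
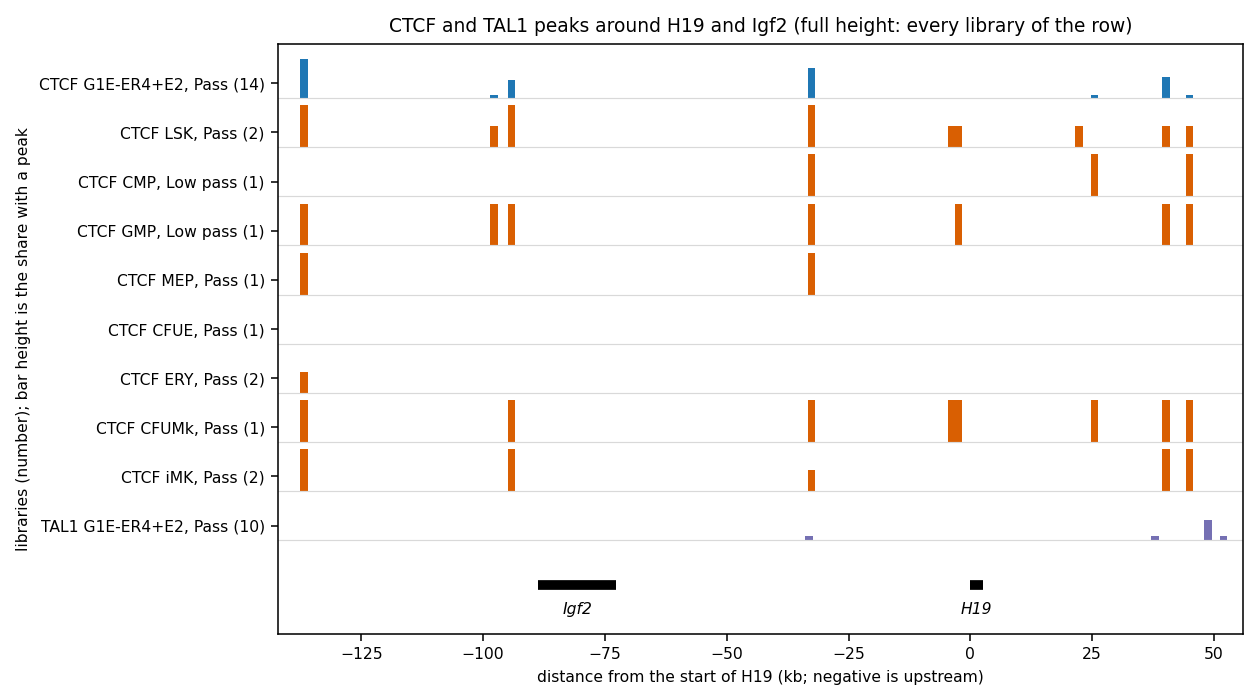
CTCF and TAL1 sites around H19 and Igf2 by distance from the H19 start (kb, negative is upstream), 1 row for each kind of cell with the number of libraries in brackets. Bar height is the share with a peak, and narrow bars are widened so that they can be seen, so the 2 sites just upstream of H19 touch. Bars stand there in LSK, GMP and CFUMk and in no row of the line, while the site between H19 and Igf2 and that in Ins2 have bars in both kinds of cell.

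Grb10 and Meg3 also had sites that no library of the line called. Grb10 is a signalling adaptor that restrains growth, with a control region at a CpG island inside the gene. The site chr11:12025460-12026319, 12364 bp downstream of its start and at an annotated promoter, holds 88 CpG (102 per kb, above 99.4% of the sites tested). It was called in both LSK libraries (fold enrichment 5.55 and 24.6), in CFUMk (24.0), in 1 of 2 iMK libraries (10.5) and in the Low pass CMP (15.1) and GMP (21.3) libraries. The weaker LSK peak stood at percentile 1.5 of its list, so that call lay near the floor. The other calls stood at 69.2 in LSK, 49.2 in CFUMk, 23.5 in iMK, 33.1 in CMP and 53.5 in GMP. Against 0 of 14 in the line, 4 of 9 gave p = 0.0142 and an adjusted p of 0.11 by Fisher's exact test. The adjusted p was 0.0256 without CFUE and ERY and 0.0197 with Low pass libraries added, but in these fits 11.8% and 11.3% of all sites tested were called more often in primary cells. The members passing in that direction, 3 of 32 and 4 of 33, were near that share. The shortest lists with a call, of 1 LSK and 1 iMK library, held 18945 and 21494 peaks, less than the longest list of the line but more than its other 13 Pass lists (at most 17510).

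The Meg3 start, which belongs to a maternally read non-coding RNA of the Dlk1 domain, had a similar set of calls. Its site chr12:109542739-109543416, 1738 bp downstream of the start, was called in LSK (10.1), CFUMk (19.6) and iMK (15.3), 1 library each, and in CMP (12.9) and GMP (42.7). That is 3 of 9 against 0 of 14 (p = 0.0474, adjusted p = 0.198), and 5 of 11 against 0 of 16 with Low pass libraries (adjusted p = 0.0474, beside 11.3% of all sites). None of the 4 Meg3 sites was called in any library of the line. Of all sites of the genome with a peak in a Pass library, 46.7% were called in primary cells only.

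The Grb10 site most often called stood apart from its island. At chr11:11973097-11974078, in an intron 64605 bp downstream of the start, a peak was called in all 14 Pass libraries of the line (fold enrichment from 8.82 to 31.6, median 14.2). It was called in 5 of 9 of primary cells, all outside CFUE and ERY (from 8.70 in MEP to 48.1 in LSK, adjusted p = 0.11).
Grb10 64605 bp downstream, chr11:11973603-11973621, minus strand: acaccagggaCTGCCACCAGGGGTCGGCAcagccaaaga

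Rasgrf1, an exchange factor for RAS and RAC, had 1 site shared by both kinds of cell and 6 called in primary cells only. Over the genome, 46.7% of sites with a peak in any Pass library were called in primary cells only, and 48.8% of the member sites. Whether this locus departs from those shares was not tested. The control region of Rasgrf1 lies upstream. The one upstream site, 35301 bp before the start, was called in a single ERY library (fold enrichment 7.34, percentile 7.0) and nowhere else. That upstream site held no match of the CTCF matrix. The site chr9:90027502-90028287, just past the 3′ end and 117594 bp from the start, was called in MEP (7.62), ERY (10.3), CFUMk (15.7) and both iMK libraries (9.45 and 12.5), and in GMP (21.3). No library of the line called it, and 5 of 9 against 0 of 14 gave p = 0.00374 with an adjusted p of 0.05, just above the threshold. The call passed when either LSK library, the CFUE library or 1 ERY library was left out in turn, with Low pass libraries added (adjusted p = 0.0197), and without CFUE and ERY (0.0256), where all sites also passed more often, as given for Grb10. It did not pass under the other 23 alternatives, and with peaks of a −log10 p of at least 10 the difference in the share of libraries fell from 55.6 to 22.2 percentage points (adjusted p = 0.358).
Rasgrf1 117594 bp downstream, chr9:90027904-90027922, minus strand: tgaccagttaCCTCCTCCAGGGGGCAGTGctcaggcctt
The site over the start of Ctsh, a cathepsin gene 144113 bp away, was called in 4 of 9 and 0 of 14 (adjusted p = 0.11), and passed without CFUE and ERY (0.0256) and with Low pass libraries (0.0474), again beside 11.8% and 11.3% of all sites. The 3 sites inside the gene were each called in 3 of 9 and 0 of 14 (p = 0.0474, adjusted p = 0.198).

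The shared Rasgrf1 site, chr9:90076570-90077553, was called in all 14 Pass libraries of the line and in 6 of 9 of primary cells. Fold enrichments ran from 7.96 to 21.4 in the line and from 10.7 in MEP to 53.6 in CFUMk.
Rasgrf1 166662 bp downstream, chr9:90077077-90077095, minus strand: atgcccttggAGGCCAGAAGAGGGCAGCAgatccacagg
No member site was called in all 23 Pass libraries, nor in all 9 of primary cells, so ranks of the members could not be compared over them as planned. Over the 6 Pass libraries of primary cells outside CFUE and ERY and the 14 of the line, a set chosen after seeing the data, 3 members were among 5089 sites called throughout. The shared Rasgrf1 site ranked higher in primary cells, with a normal score of 0.26 ± 0.755 (SD, n = 6) against -0.82 ± 0.683 (SD, n = 14), a difference of 1.08 ± 0.32 (SE, limma adjusted p = 0.0165). In that fit 17% of all sites passed in either direction, and this call was lost when either iMK library was left out. The Igf2r site upstream of the gene differed by 0.59 ± 0.31 (SE, limma adjusted p = 0.196).

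Plagl1, which encodes a zinc finger protein that restrains growth, carried 3 CTCF sites called in most Pass libraries of both kinds of cell. Those 43345 and 41377 bp upstream and 26386 bp downstream of its start were called in 11, 12 and 13 of 14 Pass libraries of the line and in 7, 6 and 6 of 9 of primary cells (adjusted p = 1, 0.637 and 0.509).
Plagl1 26386 bp downstream, chr10:13087394-13087412, plus strand: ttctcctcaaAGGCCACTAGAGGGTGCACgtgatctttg
The site 41377 bp upstream was weak in iMK: it stood at the percentiles 2.0 and 3.9 of those lists, and at 55.2 and 71.3 in LSK, 58.3 in MEP and 62.3 in CFUMk. It stood at 32.2 and 26 in the Low pass CMP and GMP libraries, and in the line it ran from 4.23 to 73.5, so the iMK values lay just below the lowest of the line. In a limma fit of the 6 libraries over 11717 sites, LSK exceeded iMK by 2.31 ± 0.49 (SE, adjusted p = 0.0426, n = 2 each), where 0.324% of sites passed. It was the 1 of 8 members tested that passed, ranking by fold enrichment gave the same site, and the call was lost when any 1 of the 4 libraries was left out.

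Igf2r, the receptor that clears IGF2, is silenced on the paternal copy by the antisense RNA Airn. Its most often called site, chr17:12810142-12811178, in Airn and 40478 bp upstream of the Igf2r start, was called in all 14 Pass libraries of the line and in 8 of 9 of primary cells (adjusted p = 0.662), more than any other member. It was the only one in CFUE (fold enrichment 14.1) and ERY (5.88) among the sites called throughout the line, with 9.59 to 30.9 in the line and 12.5 to 56.8 in the other primary cells.
Igf2r 40478 bp upstream, chr17:12810659-12810677, minus strand: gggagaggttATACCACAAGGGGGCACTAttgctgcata
No library had a CTCF peak at the Igf2r start.

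Kcnq1ot1 and Mest had few calls near their starts. Kcnq1ot1 is the paternally read antisense RNA of Kcnq1, and its site of most calls lay 142067 bp downstream in Kcnq1, in 13 of 14 and 6 of 9 Pass libraries (adjusted p = 0.509). The nearest site to its start, 26613 bp upstream, was called in CFUE only (9.40) and held no match of the CTCF matrix.
Mest, a paternally read gene of a hydrolase-like protein, had 1 site inside the gene 13211 bp downstream, called in LSK (25.7), MEP (7.62) and CFUMk (10.1) and in no library of the line (adjusted p = 0.198). A site 4997 bp upstream was called in CFUE only (14.1) and held no match of the CTCF matrix.
Mest 13211 bp downstream, chr6:30737123-30737141, minus strand: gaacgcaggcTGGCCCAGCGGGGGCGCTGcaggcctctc

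TAL1, mapped in the line only, was called near 7 of the 10 genes and not near Meg3, Rasgrf1 or Kcnq1ot1. For Igf2 and Plagl1 this rests on weak calls. The Igf2 site, shared with H19, was called in 1 of 10 Pass libraries (fold enrichment 8.5, percentile 14.9). At Plagl1, 1 site was called in 1 of 10 (6.91, percentile 5.35) and another in 1 Fail library only. Of the 19 TAL1 sites, 18 were called in a Pass library and 9 in at least 5 of the 10. The strongest near Mest, chr6:30711122-30713178, lies 10369 bp upstream of the start and was called in all 10, with fold enrichments from 9.38 to 40.9 (median 19.7). A second Mest site, 40704 bp upstream in Cep41, was called in 7 (7.50 to 19.6), and another, 9458 bp upstream, in 3.

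Igf2r held the most TAL1 sites, 5, of which 4 lie inside the gene, 1 of these at the start of Airn. The site chr17:12717168-12718301 was called in all 10 Pass libraries (7.20 to 38.4, median 17.9), and that 23231 bp downstream of the Igf2r start in 9 (5.82 to 28.5, median 13.4). Those 44961 and 28853 bp downstream were called in 7 and 3. Near Grb10 the TAL1 sites lay mainly in its neighbour Ddc, in 9 libraries 151354 bp downstream of the Grb10 start (6.37 to 35.2) and in 6 at 153152 bp, and a site inside Grb10 was called in 2. The TAL1 site of most calls near H19, 48353 bp downstream of its start, was called in 5 of 10 (6.00 to 15.7).

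At Peg3 TAL1 stood beside the CTCF site of the line. The TAL1 site chr7:6728147-6729339, 1092 bp downstream of the start, was called in 9 of 10 Pass libraries (5.93 to 20.5, median 10.6) and in 2 of 4 Low pass ones (7.31 and 4.97). It overlaps the CTCF site at 2216 bp by 69 bp and the weak one at 878 bp by 296 bp. A second TAL1 site lies wholly within the CTCF site and was called in 1 library (5.01). TAL1 was not mapped in primary cells, so no comparison could be made.

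**Figure D5:**
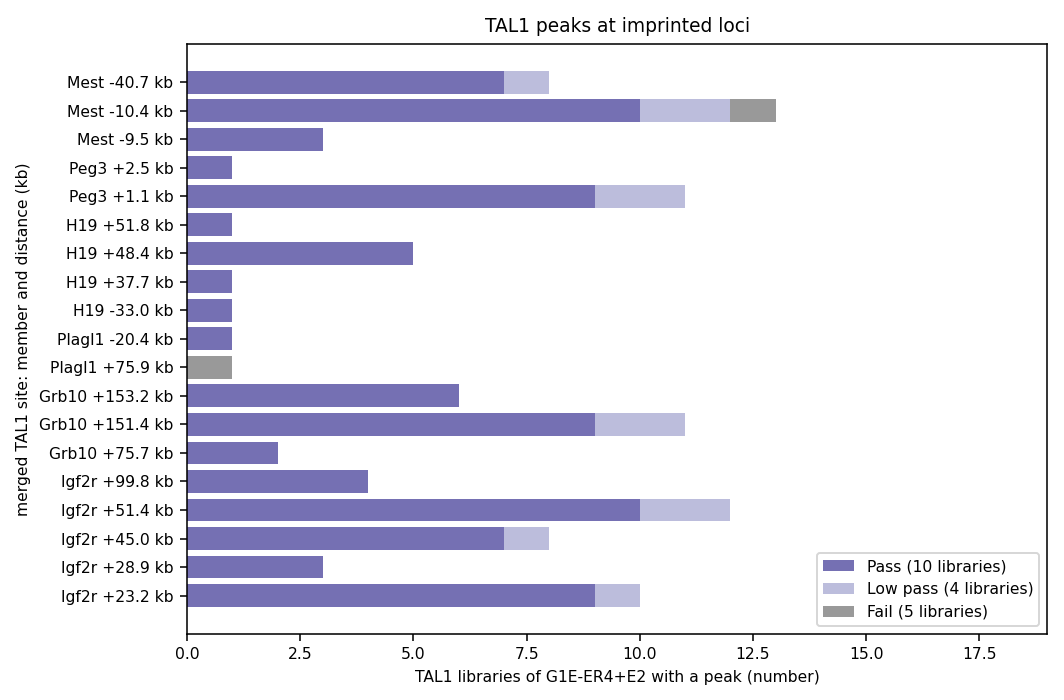
Number of TAL1 libraries of the line with a peak at each of the 19 TAL1 sites, named by the nearest member and the distance from its start in kb, split by assessment (10 Pass, 4 Low pass, 5 Fail). Sites near Mest and Igf2r were called in all 10 Pass libraries, and a site each of Peg3, Grb10 (in Ddc) and Igf2r in 9.

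The sequences of TAL1 sites were searched on both strands for AGATAA, a word bound by GATA factors. They were also searched for CTG followed by that word with 8 bases between. Of the 13 sites called in at least 2 Pass libraries, 12 (92.3%) held the GATA word and 1 (7.69%) the spaced pair, against 70.6% and 11.7% of all 8604 such sites. The pair stood at the H19 site, shown because its pattern is that of joint GATA1 and TAL1 binding, with both words in capitals.
H19 48353 bp downstream, chr7:142529377-142529393, plus strand: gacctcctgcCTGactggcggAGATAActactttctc

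The motif and base composition of the CTCF sites were described without a test. Of the 48 sites, 41 (85.4%) held a match at a p of 0.0001 per position, against 27.1% of windows of the same length 10 kb away. Of the 32 called in at least 2 Pass libraries 96.9% held one, as did 95.5% of all such sites. Windows 10 kb away from these held one in 34.4% and 45.8%. The best match held a CpG in 15 of 31 members (48.4%) and in 45.9% of all sites with a match. The 13 members tested that were called in primary cells only had a median of 23.6 CpG per kb, against 13.3 over all such sites, and the 17 called in both kinds had 11.2 against 12.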

How the data were processed

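The authors mapped reads to mm10 (GRCm38) with Bowtie (1.0.0 by the submitters' processing notes, an earlier version by the methods) and called peaks for each library on its own with MACS. The p cutoff is not given in the sources used here. Each deposited list gives the fold enrichment of a peak over background as a ratio, and the strength of evidence as −log10 p (5 or more in every list), both as deposited by the authors and not rescaled. Both depend on depth, which the lists do not give, so calls and ranks within a list were compared. Input samples were not analysed here, and some sites and sequences are not reported here. The title decided the factor of 1 library labelled with the CTCF antibody but titled TAL1.

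Peaks sharing at least 1 bp were merged over all 53 libraries by factor. Calls at sites with at least 2 of the 23 Pass libraries were compared by two-sided Fisher's exact test (SciPy 1.17.1) with Benjamini-Hochberg adjustment over all sites at 0.05, and normal scores of ranks with limma 3.58.1 (R 4.3.3). Both were tested on simulated data. Genes and positions are from GENCODE M21 (a promoter is within 1000 bp of a transcript's start), and sequences from the RefSeq copy of GRCm38, the build of the lists. The matrix was learned from the middle 200 bp of peaks in 15 rounds. A CTCF site is described singly where at least 50% of the Pass libraries of either kind called it, or where it passed a test. A TAL1 site is described where at least 2 Pass libraries called it. Some sites that meet these rules are not reported here. The H19, Grb10 (at the island), Meg3 (at the start) and Ctsh sites, and those called in few libraries that are named near a start, were chosen after their values were seen, as were the sequences of the second H19 site, of the Grb10 island and of the Peg3 repeats. The members and lists were chosen with earlier results of these data known. Alternatives were stricter peaks, shorter lists, other merging, windows of 10 kb, other filters, and leaving out each library.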

Additional observations from a re-analysis of the deposited data

Results flagged for a closer look

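Of 35 groups of 4 to 10 values examined, 3 held a library far from the rest. Chance alone sets about 1 group in 20 apart where values are continuous and normal. That rate does not hold for the small, tied counts of the Fail libraries below. At the CTCF site between H19 and Igf2, 1 Pass library of the line had a fold enrichment of 22.95, against 6.75 to 13.3 in the other 9 with a peak. Its list, of 21986 peaks, was the longest of the line. Among the 7 Fail CTCF libraries, 1 called 3 member sites and the others 0 or 1. Among the 5 Fail TAL1 libraries, 1 called 2 member sites and the others 0.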

How the results depend on the processing

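Of the 2 member sites past the threshold in the calls, that in Peg3, 2216 bp from its start, passed under all 30 alternatives run. Its adjusted p ran from 2.97e-05 to 0.00118 (Fisher's exact test). The site in Zim2 passed under 28 of 30. The count was 1 with a −log10 p of at least 10, and 1 with lists shortened to the shortest Pass list, where fewer sites could be tested (19 and 9 members). No site called in primary cells only was among the 9, so shortened lists could not test such sites. It was 6 with Low pass libraries and 5 without CFUE and ERY, the sites added being at Rasgrf1, Grb10 and, with Low pass libraries, Meg3. Of all sites tested, 11.3% and 11.8% were then called more often in primary cells, against 4 of 33 and 3 of 32 members, so these members passed at about the share of the genome. Leaving out 1 library at a time gave 2 to 3. The Rasgrf1 site past the 3′ end passed under 6 of 29 alternatives. Rank comparisons as planned held 0 members, and the other scalings, merging and stricter peaks gave no value. Leaving out 1 ERY library brought in 1 member, which did not pass (0 for LSK against ERY and for ERY against iMK). Without CFUE and ERY, chosen after seeing the data, 1 member passed between primary cells and the line (0 to 1 with a further library left out) and 1 between LSK and iMK, by either ranking (0 with a further library left out). With peaks of a −log10 p of at least 10 there were 27 CTCF and 12 TAL1 sites, and within 10 kb 24 and 9. At a match p of 1e-05, 64.6% of the CTCF sites held a match. No paired analysis was possible because the labels pair no libraries. Depth is unknown, and 9 libraries of 6 cell types limit what the calls can show.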

Other observations

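The Peg3 site of the line repeats the word AAGATGG, known as the core bound by YY1 in the Peg3 control region. It holds 6 copies on both strands, a word searched after the repeats were seen. Of all 31665 CTCF sites tested, 20.8% hold the word at least once and 1, the Peg3 site itself, holds as many as 6. Among the members, a site in Rasgrf1 30347 bp downstream of its start, called in primary cells only, holds 5.

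Among the 48 CTCF sites 7 had no peak in a Pass library. Those at Kcnq1ot1 (118635 bp downstream) and Plagl1 (48868 bp upstream and 75899 bp downstream) were called in 1 Fail library each, are 94 to 195 bp wide, and lie mostly in repeats (83.2%, 100% and 79%). The last overlaps the single TAL1 site called in a Fail library only. The other 4, at Rasgrf1, Grb10, Meg3 and Igf2r, were called in the Low pass CMP or GMP library alone, with fold enrichments from 12.9 to 21.6. The Meg3 one lies 461 bp from the gene's start.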
